A study of Mus musculus with 22 samples.

Results

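Choroid plexus (ChP) dissected from the lateral ventricles (LV) was compared with ChP dissected from the fourth ventricle (4V) in vehicle-injected mice, with 2 pools of RNA from each ventricle. These 4 pools are part of 14 in the series, and their 8 count files are part of 22. All 4 came from *Otx2* lox/lox mice of the strain labelled S129, 3 months old at injection, which received vehicle and no Cre-Tat protein in both lateral ventricles and were dissected 15 days later after perfusion with saline. Each pool joined 4 mice. The study used males and females alike, and the sexes within a pool are not given in the sources used here. Both plexuses were dissected from the injected mice, but whether an LV pool and a 4V pool with the same letter hold the same mice is not stated there. The floxed allele and the vehicle are shared by both sides, while the injection itself entered the lateral ventricles, so its effects and those of the site cannot be told apart. For comparison, the report also uses the Cre-Tat pools of the same model (2 from LV and 2 from 4V, 5 mice each, same strain and floxed allele). Cre-Tat was injected to knock down *Otx2*, and the study reports lower *Otx2* RNA in both plexuses after it. The 2 wildtype 4V pools of the constitutive model are used too (strain labelled B6D2, 3 months old). Those mice carried no floxed allele, and no injection is described for them.

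The ChP is a fringe of secretory epithelium around a vascular stroma that produces cerebrospinal fluid and forms the barrier between blood and this fluid. It arises from the dorsal midline of the neural tube at separate places, the LV ChP from the telencephalon and the 4V ChP from the hindbrain. In the embryo these regions are set apart by transcription factors such as EMX and DMRT proteins in the forebrain and HOX proteins in the hindbrain, while roof plate factors such as LMX1A and ZIC proteins are common to the dorsal midline.

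The files were assigned to pools by the library number in their names. For 14 of the 16 files of the conditional model this number disagreed with the sample the file hangs on, and 6 of the 8 vehicle files were attached to another group. Files with the same library number differed by no more than sampling noise (chi-square divided by degrees of freedom 1.005 to 1.037 in 8 pairs), whereas this quotient was at least 5.489 in all other pairs. Total counts over all transcripts were 46827601 and 46035034 in LV pools A and B and 29551331 and 22750019 in 4V pools A and B. With 1 transcript kept per gene, the one that held most reads, 10555040 to 23723551 counts remained per pool. LV pool A stood apart from LV pool B in the direction of 4V. Among the 227 genes called higher in 4V by more than 2-fold, LV pool A lay above LV pool B in 78.9%, compared with 26.9% of the 197 genes called higher in LV by more than 2-fold and 50.5% of all genes tested. The 4V pools showed no such split, as 4V pool A lay above 4V pool B in 52.4% and 51.3% of the same genes. The part that this difference between pools plays in the results was not tested.

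Of 14548 genes tested, 1090 differed between LV and 4V at an adjusted p under 0.05 (quasi-likelihood test of edgeR, Benjamini-Hochberg adjustment), which is 7.49% of the genes tested. LV was higher for 508 genes (3.49%) and 4V for 582 (4.00%). The difference passed 2-fold for 197 genes higher in LV and 227 higher in 4V, which together are 2.91% of all genes tested. The median fold change of the called genes was 0.83 in size on the log2 scale, and the median over all genes tested was 0.01. With scaling to total counts, the median of all genes shifted to -0.19, and 252 genes were called higher in LV and 1220 higher in 4V. No called gene named here changed direction under that scaling. Leaving out 1 pool gave 408 calls without 4V pool B, 645 without 4V pool A, 742 without LV pool B and 1969 without LV pool A. Permuting 4 pools cannot bring any one gene under the threshold, so the p values rest on a spread shared across genes, and they measure the spread between pools of mice.

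**Figure D1:**
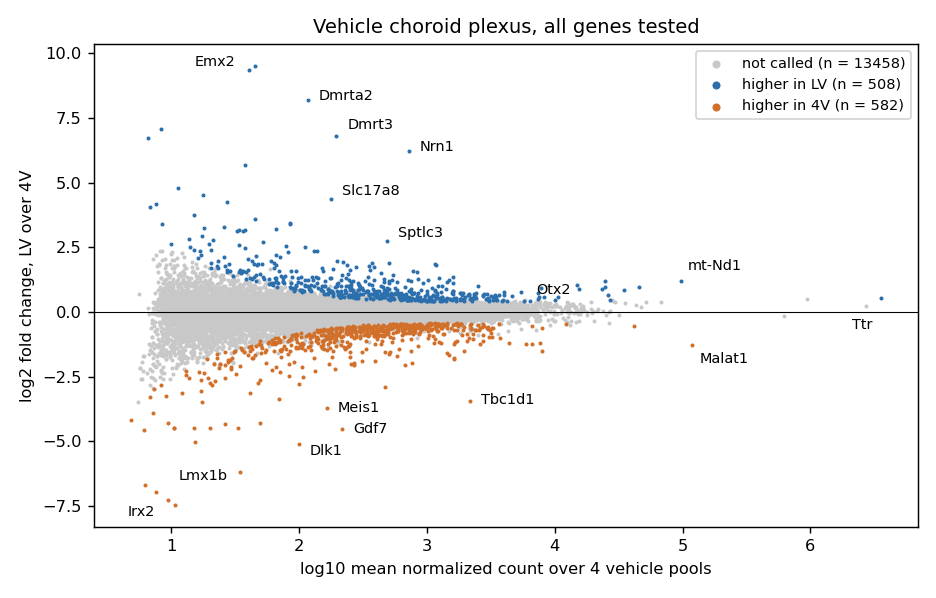
Each point is 1 of the 14548 genes tested, with the log10 mean normalized count over the 4 vehicle pools on the x axis and the fitted log2 fold change, LV over 4V, on the y axis. The 508 genes higher in LV and the 582 higher in 4V spread over the whole range of levels, and the most abundant transcript of the epithelium, Ttr, lies near 0. The fitted values of genes near 0 in 1 ventricle, such as Emx2 and Irx2, are no measure of their fold.

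The Cre-Tat pools share no library with the vehicle pools and come from mice of the same floxed genotype after the other injection. That injection knocks down *Otx2*, so these pools compare LV with 4V at lowered *Otx2* and are not a plain repeat. There, 886 of 15099 genes differed between LV and 4V, or 5.87%. Of the 1090 genes called in vehicle, 1084 could be tested in Cre-Tat, 1065 had the same sign (98.2%, compared with 75.0% of all genes tested in both) and 489 were also called with that sign. None of the 1084 was called with the opposite sign. The median size of the difference among these genes was 0.83 in vehicle and 0.69 in Cre-Tat on the log2 scale. A test of the difference between the 2 treatments called 1 gene of 15552, or 0.00643%.

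Of the forebrain factors, *Emx2*, *Six3*, *Dmrta2*, *Dmrt3* and *Otx1* were found in LV ChP and had few or no reads in 4V ChP. Of 30 forebrain patterning transcription factors listed, 12 had enough counts to be tested, 6 of them were higher in LV and none was higher in 4V. The called share was 50.0%, beside 3.49% of all genes tested that were called higher in LV. Members with few or no reads in 4V, such as *Emx2* and *Six3*, passed the count filter only through the LV pools, so their direction was set by it. *Emx2*, a homeobox gene of the dorsal telencephalon (chromosome 19 of GRCm38, 59458372 to 59465357, plus strand), had 77.4 (pool A) and 85.8 (pool B) normalized counts in LV and no count in either 4V pool. LV was at least 40.4-fold higher, measured against 3 counts over both 4V pools (adjusted p = 3.48e-05, edgeR). *Six3*, a homeobox gene of the anterior forebrain, followed with 19 and 14.4 in LV and no count in 4V, so that LV was at least 8.28-fold higher (adjusted p = 0.00867, edgeR). Both genes were thus seen in every LV pool and in no 4V pool.

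*Dmrta2* and *Dmrt3*, which encode DM-domain factors of the embryonic cortex and its medial edge, had still higher levels in LV and at most 6.09 normalized counts in a 4V pool. *Dmrta2* (chromosome 4, 109978053 to 109983687, plus strand) had 213 and 252 normalized counts in LV, and 0 and 1.5 in 4V. The 4V value is 1 read in all, which gave a ratio of 345 with a 95% counting interval of 61.7 to 13665 (adjusted p = 5.88e-07, edgeR). *Dmrt3* reached 357 and 420 in LV, compared with 6.09 and 0 in 4V, log2 fold change 6.80 (standard error 0.39, adjusted p = 5.4e-07, edgeR). *Otx1*, the paralogue of *Otx2*, had 48.2 and 56.9 in LV against 4.87 and 0 in 4V, log2 fold change 4.24 (standard error 0.64, adjusted p = 0.00133, edgeR). *Nr2f2*, which encodes the nuclear receptor COUP-TFII, differed least, with 1039 and 1118 in LV and 731 and 815 in 4V, a 1.4-fold difference (adjusted p = 0.0295, edgeR). Among the tested members that did not pass were *Otx2*, *Nfix*, *Pax6*, *Nr2f1* and *Emx1*. *Otx2* itself had 6374 and 7569 normalized counts in LV and 6338 and 6404 in 4V, and these ranges overlapped (log2 fold change 0.13, standard error 0.13, adjusted p = 0.586, edgeR). Antisense transcripts at 2 of these loci, named after their values were seen, ran the same way. *Six3os1* had 82.1 and 100 in LV and no count in 4V, which is at least 45.1-fold higher. *Emx2os* had 44.2 and 12.8 in LV and 3.65 and 0 in 4V, a ratio of 14.2 with a 95% counting interval of 4.67 to 70.4. The kit marks strand, but the strand setting of the counting is not given in the sources used here, so reads of such neighbours cannot be told apart from those of the gene where they overlap.

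**Figure D2:**
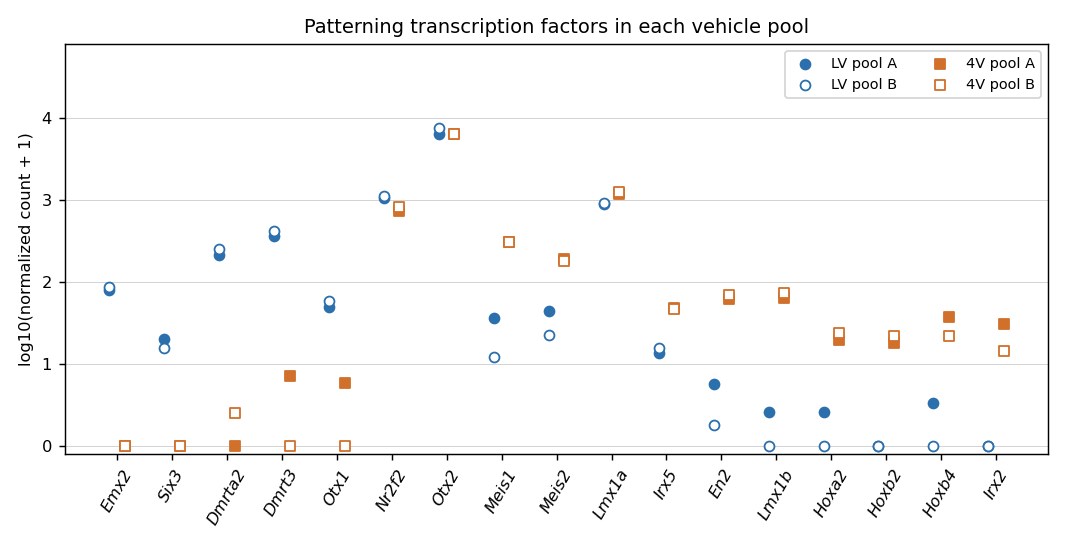
Each column is a gene and each point a vehicle pool, on a scale of log10(normalized count + 1), with circles for LV and squares for 4V, filled for pool A and open for pool B. Emx2, Six3, Dmrta2, Dmrt3 and Otx1 lie near 0 in 4V, Lmx1b, Hoxa2, Hoxb2, Hoxb4 and Irx2 lie near 0 in LV, and Otx2 lies between 6338 and 7569 normalized counts in all 4 pools.

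Hindbrain factors showed the reverse pattern. Of 36 listed, 12 had no count in any vehicle pool and 10 could be tested, and 7 of these 10 were higher in 4V and none higher in LV, compared with 4.00% of all genes tested. Members with few or no reads in LV, such as *Lmx1b*, *Irx2*, *Hoxa2*, *Hoxb2* and *Hoxb4*, passed the count filter only through the 4V pools. Their direction was thus set by the filter, and the count of calls describes the list without testing it. *Lmx1b*, a LIM-homeobox gene of the isthmus and hindbrain, had 1.58 and 0 normalized counts in LV and 63.3 and 72.2 in 4V (ratio 84.5, 95% counting interval 22.8 to 708, adjusted p = 7.7e-05, edgeR). *En2*, a homeobox gene of the midbrain and anterior hindbrain (chromosome 5, 28165694 to 28172166, plus strand), had 4.74 and 0.802 in LV and 60.9 and 67.7 in 4V, log2 fold change -4.47 (standard error 0.56, adjusted p = 0.000301, edgeR). *Irx2*, of the Iroquois family, had no count in LV and 29.2 and 13.5 in 4V, at least 18.6-fold higher in 4V (adjusted p = 0.00357, edgeR). Its relative *Irx5* was detected on both sides, with 12.6 and 14.4 in LV and 47.5 and 45.1 in 4V (log2 fold change -1.77, standard error 0.40, adjusted p = 0.0183, edgeR). In each of these genes, the 4V pools lay above both LV pools without overlap, as did 27.0% of all genes tested (26.9% lay the other way and 54.0% were apart in either direction). Among the members that did not pass, *Pax3* had 2.37 to 2.4 normalized counts in LV and 10.5 to 12.2 in 4V, and *Irx3* had 12.6 to 20.8 and 4.87 to 7.52.

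The *Hox* protein genes with enough counts to be tested belong to the anterior groups of the A and B clusters. *Hoxb2* (chromosome 11, 96350525 to 96354012, plus strand) had no count in LV and 17 and 21.1 normalized counts in 4V, at least 15.8-fold higher in 4V (adjusted p = 0.00366, edgeR), although 58.5% of its counted transcript overlaps *Hoxb3os* on the other strand. *Hoxa2*, the *Hox* gene that is expressed furthest forward in the hindbrain, had 1.58 and 0 in LV and 18.3 and 22.6 in 4V (ratio 25.4, 95% counting interval 6.44 to 219, adjusted p = 0.00822, edgeR), and part of its transcript is shared with *Gm28308* on the same strand. *Hoxb4* was at 2.37 and 0 in LV and 36.5 and 21.1 in 4V (ratio 24.8, 95% counting interval 7.95 to 125, adjusted p = 0.00487, edgeR). Over all 61 *Hox* genes and cluster transcripts in the files, a group put together after the values were seen, 39 had no count in any vehicle pool and 5 were tested, and all 5 were higher in 4V. With few or no reads in LV, all 5 passed the count filter only through the 4V pools, so this direction was fixed in advance. The other 2 were *Hotairm1*, with 2.37 and 0.802 in LV and 37.7 and 39.1 in 4V, and *Hoxb3os*, with 1.58 and 0 in LV and 24.4 and 16.5 in 4V. Among the genes below the filter, *Hoxa3* and *Hoxb3* had no count in LV and 1.5 to 6.09 normalized counts in the 4V pools. Without 4V pool A, 2 of the 7 hindbrain factors were still called, and without 4V pool B 4 of them.

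The wildtype 4V pools, which came from another strain and have no LV counterpart, give the level of some of these genes in 4V alone. Their levels are given in CPM, which scales a count by the size of its library after TMM adjustment. *Hoxa2* was 1.98 and 2.59 in these pools, *Hoxb2* 1.83 and 2.1, *Lmx1b* 3.61 and 3.48 and *En2* 6.46 and 5.52. *Emx2*, *Six3*, *Dmrta2* and *Dmrt3* had no count in either wildtype 4V pool. In the Cre-Tat pools, 5 of the 6 forebrain factors and all 7 hindbrain factors were called again in the same direction, the exception being *Nr2f2* (log2 fold change 0.22, adjusted p = 0.584, edgeR). The same count filter was used there. Members with few or no reads in a ventricle thus had their direction set by the filter again, and their repeated calls do not test it.

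The 250 bases before the RefSeq start of *Hoxa2* and of *Six3* are shown because they held letters of the motifs searched, while the promoters of *Emx2*, *Dmrta2*, *Dmrt3*, *Lmx1b*, *Irx2*, *Hoxb4*, *Meis1*, *Dlk1* and *Gdf7* held none of them in this window. The motifs were TGATNNAT, bound by HOX-PBX pairs, TGACAG, bound by MEIS proteins, and TAATCC, bound by OTX proteins, each on both strands. The motifs do not overlap each other in the windows shown. Capitals mark the matches, which are at -111 (HOX-PBX) and -44 (MEIS) from the start of *Hoxa2* and at -139 (MEIS) from the start of *Six3*. The build is GRCm38.p6, and the sequences run 5′ to 3′ on the strand of the gene, chr6:52164832-52165081 on the minus strand for *Hoxa2* and chr17:85620584-85620833 on the plus strand for *Six3*.
Hoxa2: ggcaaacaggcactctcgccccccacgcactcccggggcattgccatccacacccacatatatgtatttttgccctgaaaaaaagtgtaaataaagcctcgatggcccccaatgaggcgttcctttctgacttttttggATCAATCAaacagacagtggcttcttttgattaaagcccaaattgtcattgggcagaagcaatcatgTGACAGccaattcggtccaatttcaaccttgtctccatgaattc
Six3: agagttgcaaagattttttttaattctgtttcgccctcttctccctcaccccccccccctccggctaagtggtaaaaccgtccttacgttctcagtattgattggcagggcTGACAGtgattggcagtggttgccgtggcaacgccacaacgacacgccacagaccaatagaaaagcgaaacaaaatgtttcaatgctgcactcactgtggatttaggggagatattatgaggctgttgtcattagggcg
Among all 27025 promoters of the same length, 7.91% held the HOX-PBX letters, 16% the MEIS letters and 6.38% the OTX letters. Among the genes called higher in 4V that have a promoter entry (424 of 582) the shares were 2.59%, 13.4% and 4.48%. Among those called higher in LV (356 of 508) they were 5.34%, 12.6% and 4.78%, beside 3.68%, 13.5% and 5.22% of all genes tested. A match is a description of the letters and not a binding site.

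Factors of the TALE class, which act as partners of HOX proteins, and of the roof plate were expressed on both sides. All 18 listed genes were tested, 6 were higher in 4V and none was higher in LV, and the median log2 fold change was -0.10. The called share was 33.3%, beside 4.00% of all genes tested that were called higher in 4V. With DESeq2, without 4V pool A or without 4V pool B, 3 were called higher in 4V, and without LV pool A 5 were called higher in 4V and 1 in LV. *Meis1* (chromosome 11, 18879817 to 19018985, minus strand) had 35.5 and 11.2 normalized counts in LV and 309 and 308 in 4V, a 13.1-fold difference (log2 fold change -3.71, standard error 0.32, adjusted p = 1.81e-05, edgeR). *Meis2* had 42.6 and 21.6 in LV and 188 and 177 in 4V, a 5.66-fold difference (log2 fold change -2.50, standard error 0.29, adjusted p = 0.000134, edgeR). In both genes LV pool A held more than LV pool B, and both LV pools stayed far below 4V. *Meis3* went from 29.7 to 39.5 in LV to 67 to 69.2 in 4V without passing the test (adjusted p = 0.0734, edgeR). Of the PBX partners, *Pbx3* was 1.69-fold higher in 4V (adjusted p = 0.0325, edgeR). Among the zinc finger genes of the dorsal midline, *Zic4* was 1.49-fold higher in 4V (adjusted p = 0.0377, edgeR). *Lmx1a*, the LIM-homeobox gene that specifies the roof plate, was 887 and 921 in LV and 1180 and 1235 in 4V, a 1.34-fold difference (adjusted p = 0.0443, edgeR). *Msx1*, *Msx2*, *Pbx2*, *Pknox1*, *Pknox2*, *Tgif1* and *Tgif2* did not pass either.

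The largest differences among well-expressed genes were taken as the 15 in each direction with a mean of at least 50 normalized counts, an adjusted p under 0.05 and no overlap between the ventricles. Higher in 4V, the first was *Dlk1*, an imprinted gene that encodes a membrane protein related to Notch ligands (chromosome 12, 109452823 to 109463336, plus strand), with 7.9 and 3.21 normalized counts in LV and 202 and 185 in 4V. The fold was 34.1 (log2 fold change -5.09, standard error 0.34, adjusted p = 2.46e-06, edgeR). *Gdf7*, a BMP-type ligand of the roof plate, came next with 30.8 and 4.81 in LV and 398 and 433 in 4V (log2 fold change -4.53, standard error 0.38, adjusted p = 1.34e-05, edgeR). *Tbc1d1*, which encodes a GTPase-activating protein for Rab proteins, was the most abundant, with 498 and 243 in LV and 3905 and 4043 in 4V, a 10.7-fold difference (log2 fold change -3.42, standard error 0.24, adjusted p = 2.7e-06, edgeR). *Gfra1*, a receptor subunit for GDNF, had 22.9 and 1.6 in LV and 127 ± 3 (SD, n = 2) in 4V, so the LV pools differed from each other more than the 4V pools did. The others were *Gm853* (7.36-fold), the lipid droplet gene *Cidea* (6.83-fold), *Slc47a1*, which encodes the cation extruder MATE1 (5.61-fold), *Thsd4* (4.92-fold), *Gnal*, a G protein alpha subunit (4.85-fold), *Gabre*, the epsilon subunit of GABA-A receptors (4.73-fold), the guidance factor *Ntn1* (4.6-fold), *Zfyve28* (4.4-fold) and *Cfap46*, of the ciliary axoneme (4.31-fold), besides *Meis1* and *Meis2*. Of these 15 genes, 13 were higher in LV pool A than in LV pool B. The last gene taken, *Cfap46*, had a log2 fold change of -2.11, and the first left out, *Cysltr1*, had -2.06.

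Higher in LV, *Dmrta2* and *Dmrt3* were followed by *Nrn1*, which encodes neuritin, an extracellular protein anchored to the membrane. It had 1312 and 1562 normalized counts in LV and 17 and 21.1 in 4V, a 75.7-fold difference (log2 fold change 6.24, standard error 0.20, adjusted p = 1.25e-09, edgeR), and 30.9% of its transcript overlaps *Fars2* on the other strand. *Slc17a8*, the vesicular glutamate transporter VGLUT3, had 329 and 347 in LV and 18.3 and 13.5 in 4V, a 20.8-fold difference (adjusted p = 3.76e-07, edgeR). *Sptlc3*, a subunit of serine palmitoyltransferase, which starts sphingolipid synthesis, had 854 and 843 in LV and 121 and 132 in 4V, a 6.73-fold difference (adjusted p = 3.76e-07, edgeR). These genes showed little spread within either ventricle. The germ cell RNA-binding gene *Dazl* was 10.8-fold higher in LV, the amino acid transporter gene *Slc6a17* 10.5-fold and *Cd44*, which encodes a receptor for hyaluronan, 9.25-fold. *Tenm2* (6.61-fold), *Ano3* (5.93-fold), the potassium channel subunit gene *Kcnab1* (5.67-fold), the T-type calcium channel gene *Cacna1h* (5.12-fold), *Cpn1*, the catalytic subunit of carboxypeptidase N (5.09-fold), *Nipal2* (4.96-fold) and *Nyap2* (4.64-fold) completed the list. The last gene taken, *Nyap2*, had a log2 fold change of 2.22, and the first left out, *1500035N22Rik*, had 2.13. Of the 15 genes, 2 were higher in LV pool A than in LV pool B.

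In the Cre-Tat pools, all 30 of these genes kept their direction and 29 were called. The exception was *Cd44*, with 222 and 101 normalized counts in LV and 94.5 and 69.6 in 4V (log2 fold change 0.98, standard error 0.31, adjusted p = 0.0739, edgeR). Any gene with few or no reads in a ventricle had its direction set by the count filter. The wildtype 4V pools differed from the vehicle 4V pools for some genes higher in LV. *Slc6a17* reached 72.3 and 66.6 CPM and *Nipal2* 21 and 20.9 in wildtype 4V. The wildtype and vehicle pools differ at least in strain, floxed allele and injection, and these cannot be told apart here.

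**Figure D3:**
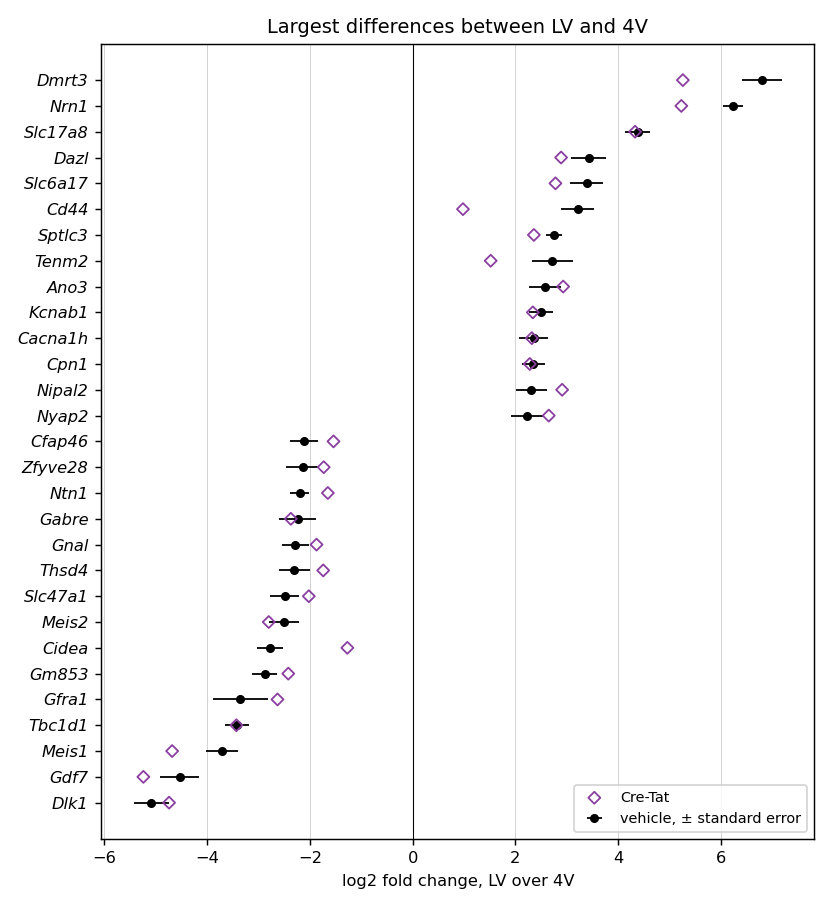
Log2 fold change, LV over 4V, of the genes with the largest differences. Black points are the vehicle pools with their standard error, and open diamonds are the Cre-Tat pools. Dmrta2 is left out because it had 1 read in the vehicle 4V pools. All genes keep their side of 0 in the Cre-Tat pools, where Cd44 falls from 3.21 to 0.98.

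Among secreted signals, the BMP and TGF-beta list split between the ventricles. Of 42 tested genes, 9 were higher in LV and 5 in 4V (33.3%, beside 7.49% of all genes tested), with a median log2 fold change of 0.13. The ligand *Bmp5* had 524 and 572 normalized counts in LV and 216 and 245 in 4V (log2 fold change 1.25, standard error 0.15, adjusted p = 0.000142, edgeR), with 49.1% of its transcript overlapping a gene on the other strand. The TGF-beta ligand *Tgfb2* was 1.7-fold higher in LV (6799 and 7017 against 4090 and 4058, adjusted p = 0.00142, edgeR) and *Tgfb3* 2.15-fold (adjusted p = 0.00143, edgeR). Higher in 4V with *Gdf7* were the BMP antagonist *Grem1*, which had no count in LV and 17 and 13.5 in 4V (at least 13-fold, adjusted p = 0.00656, edgeR), and *Id1*, *Id3* and *Id4*, which are known targets of BMP signalling. These rose 1.51-fold, 1.58-fold and 1.5-fold in 4V. *Grem1* and the *Id* genes were named after their values were seen. *Grem1* passed the count filter only through the 4V pools, so the filter set its direction. With scaling to total counts, 4 genes of this list were called in LV and 5 in 4V. Leaving out LV pool B, 4V pool A or 4V pool B left 3 calls in LV each time, with 3, 2 and 4 in 4V.

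The Wnt list had 3 genes higher in LV and 2 in 4V of 32 tested (15.6%, beside 7.49% of all genes tested), with a median of 0.16. *Dkk3*, a member of the Dickkopf family, was 2.25-fold (adjusted p = 0.000694, edgeR), *Nkd2*, an intracellular antagonist, 2.98-fold (adjusted p = 0.0025, edgeR) and *Sfrp5*, a secreted antagonist, 1.62-fold (adjusted p = 0.0187, edgeR) higher in LV. *Sfrp4*, of the same secreted family, had 7.11 and 3.21 in LV and 36.5 and 33.1 in 4V (log2 fold change -2.73, standard error 0.54, adjusted p = 0.00786, edgeR). The ligand *Wnt2*, named after its values were seen, had 3.95 and 0.802 in LV and 18.3 and 25.6 in 4V (adjusted p = 0.0204, edgeR). Outside the list and named after its values were seen, *Wls*, which carries Wnt ligands to the cell surface, had 3655 and 3426 in LV and 8444 and 8198 in 4V, a 2.35-fold difference (adjusted p = 3.87e-05, edgeR). Without 4V pool A or 4V pool B, no Wnt gene was called higher in 4V.

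Hedgehog genes that passed the test were all higher in 4V, 3 of 13 tested, although without LV pool A 2 were called in 4V and 1 in LV. The 3 genes called over all pools are 23.1% of those tested, beside 4.00% of all genes tested that were called higher in 4V. *Hhip*, which binds and sequesters the ligand, had 7.9 and 8.82 normalized counts in LV and 49.9 and 99.3 in 4V, an 8.72-fold difference (adjusted p = 0.000952, edgeR). *Disp1*, which releases the lipid-modified ligand from cells, was 2.94-fold (141 and 112 against 368 and 376, adjusted p = 7.78e-05, edgeR) and the co-receptor *Cdon* 1.4-fold (adjusted p = 0.0369, edgeR) higher in 4V. *Shh* had 1 read in the 4 pools together.

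In the insulin-like growth factor axis, 4 of 16 tested genes were higher in LV and 1 in 4V (31.2%, beside 7.49% of all genes tested). The ligand *Igf2*, which is secreted by the ChP, had 28971 and 34286 normalized counts in LV and 19625 and 20975 in 4V, a 1.56-fold difference (adjusted p = 0.00945, edgeR). *Igf2* was named after its values were seen. Of the binding proteins, *Igfbp3* was 2.44-fold, *Igfbp4* 2.38-fold and *Igfbp5* 1.67-fold higher in LV (adjusted p = 0.000279, 6.62e-05 and 0.00343, edgeR), while *Igfbp6* was 2.79-fold higher in 4V (71.9 and 44.9 against 168 and 158, adjusted p = 0.00297, edgeR). *Igfbp2*, the most abundant binding protein, had 24160 and 21107 in LV and 33714 and 27382 in 4V and did not pass (adjusted p = 0.078, edgeR). With total counts, 4 genes of this list were called in LV and 5 in 4V. In the FGF list, 1 of 17 tested genes was called (5.88%, beside 7.49% of all genes tested). It was the feedback inhibitor *Spry1*, which was 2.27-fold higher in LV (460 and 456 against 220 and 180, adjusted p = 0.00036, edgeR).

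Axon guidance genes differed in both directions, 6 higher in LV and 7 in 4V of 55 tested (23.6%, beside 7.49% of all genes tested), with a median of 0.14. *Ntn1* had 62.4 and 72.9 normalized counts in LV and 309 and 314 in 4V (log2 fold change -2.20, standard error 0.18, adjusted p = 1.34e-05, edgeR). The secreted repellent *Slit2* had 1768 and 1680 in LV and 3639 and 3892 in 4V, a 2.18-fold difference (adjusted p = 6.12e-05, edgeR). *Sema3b* was 2.01-fold higher in 4V (adjusted p = 0.000295, edgeR) and its relative *Sema3c* 1.59-fold higher in LV (adjusted p = 0.00571, edgeR). Without 4V pool B, 1 gene of the list was called higher in LV and 3 in 4V, and without 4V pool A 2 and 6.

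**Figure D4:**
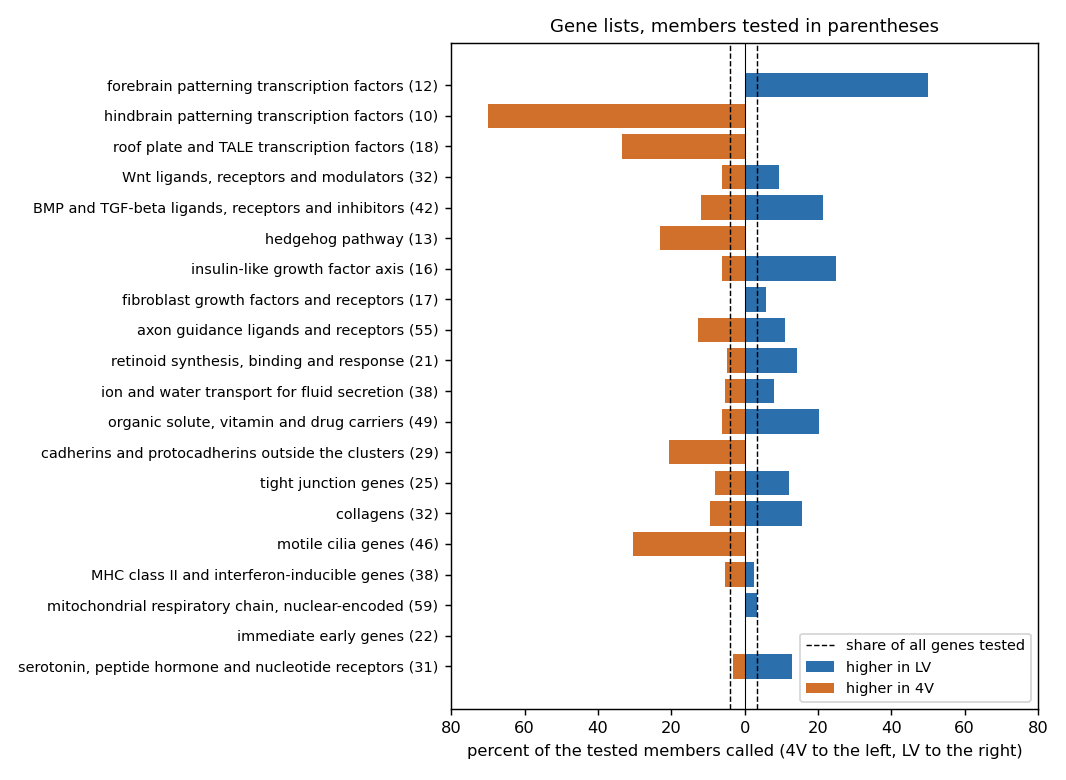
Share of the tested members of each list that were called, higher in 4V to the left and higher in LV to the right, in percent. Dashed lines are the shares of all genes tested, 3.49% for LV and 4.00% for 4V. Forebrain factors extend to the LV side alone, and hindbrain factors, TALE factors, hedgehog genes, cadherins and motile cilia genes to the 4V side alone.

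Transport and barrier genes carry the main work of the epithelium. Of 38 tested genes for ion and water transport, 3 were higher in LV and 2 in 4V (13.2%, beside 7.49% of all genes tested), and the median was -0.03. None of these 5 genes passed 2-fold. *Atp1b2*, a subunit of the sodium pump, and *Slc26a7*, an anion exchanger, were 1.38-fold and 1.37-fold higher in LV (adjusted p = 0.0342 and 0.0321, edgeR), and the carbonic anhydrase gene *Car13* and the cation channel gene *Trpm3* were 1.5-fold and 1.46-fold higher in 4V (adjusted p = 0.0449 and 0.0452, edgeR). The water channel gene *Aqp11*, named after its values were seen, was 1.84-fold higher in LV (adjusted p = 0.0479, edgeR). Without 4V pool B edgeR called 0 genes of this list, with 11 at an unadjusted p under 0.05, and DESeq2 on all pools called 1 in each direction. Without 4V pool A 1 was called in LV and 0 in 4V, and the fit of all 8 pools and the sums over transcripts also gave 0, with 8 and 12 at an unadjusted p under 0.05. With total counts, no gene of this list was called in LV and 6 were called in 4V. Of 49 tested carriers of organic solutes, 10 were higher in LV and 3 in 4V (26.5%), with a median of 0.16, and without 4V pool B 5 and 1 were called. *Slc35f1* had 1586 and 2009 in LV and 488 and 510 in 4V (log2 fold change 1.85, standard error 0.14, adjusted p = 5.54e-06, edgeR). The monocarboxylate carrier *Slc16a1* was 1.83-fold, the organic anion carrier *Slco2b1* 2.24-fold and the cystine exchanger *Slc7a11* 2.17-fold higher in LV (adjusted p = 0.000616, 0.00203 and 0.00237, edgeR). The endocytic receptor *Lrp2* had 26.1 and 17.6 in LV and 71.8 and 66.2 in 4V (adjusted p = 0.0102, edgeR), and *Abca4* was 1.54-fold higher in 4V (adjusted p = 0.00578, edgeR).

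Of 25 tight junction genes tested, 3 were higher in LV and 2 in 4V, and without 4V pool B 1 and 2. *Jam3* (1.91-fold) and *Cldn9* (1.84-fold) were higher in 4V, and *Cldn12* (1.49-fold) in LV (adjusted p = 0.000969, 0.0192 and 0.00896, edgeR). *Igsf5* was 2.35-fold higher in LV, but its transcript lies wholly within another annotated gene on its strand, so its reads are uncertain. Cadherins that passed were all higher in 4V, 6 of 29 tested (20.7%, beside 4.00% of all genes tested that were called higher in 4V), although the median of the list was 0.33. Without LV pool A, 3 genes of this list were called in LV and 7 in 4V, without LV pool B 1 and 4, and in the Cre-Tat pools 5 in each direction. *Fat1*, the most abundant of those named, had 4686 and 4599 in LV and 10323 and 11009 in 4V, a 2.3-fold difference (adjusted p = 4.72e-05, edgeR). *Cdh1*, which encodes E-cadherin, had 34 and 42.5 in LV and 146 in each 4V pool, a 3.81-fold difference (adjusted p = 0.00033, edgeR), *Cdh18* was 2.2-fold and *Clstn3* 1.94-fold higher in 4V (adjusted p = 0.00184 and 0.000933, edgeR). Collagens split, 5 higher in LV and 3 in 4V of 32 tested, but 1 and 2 without 4V pool A, 3 and 1 without 4V pool B and 6 and 6 without LV pool A. Over all pools, 25.0% of the collagens tested were called, beside 7.49% of all genes tested. Within type IV, the basement membrane collagens, *Col4a1* was 2.04-fold higher in LV and *Col4a6* 2.52-fold higher in 4V (adjusted p = 0.0071 and 0.00332, edgeR). *Col23a1* was 2.06-fold higher in LV and *Col20a1* 2.71-fold higher in 4V (adjusted p = 0.00379 and 0.00756, edgeR).

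In the retinoid list, 3 of 21 tested genes were higher in LV and 1 in 4V. Without LV pool B 1 and 0 were called, without 4V pool A 2 and 0, without 4V pool B 1 and 2, and without LV pool A 2 and 2. *Crabp1*, a cytoplasmic carrier of retinoic acid, had 73.4 and 75.4 normalized counts in LV and 2.44 and 0 in 4V (ratio 55.3, 95% counting interval 15.1 to 460, adjusted p = 7.47e-05, edgeR). It passed the count filter only through the LV pools, so the filter set its direction. The other differences were small, 1.37-fold for the receptor *Rxra* and 1.36-fold for the dehydrogenase *Rdh10* toward LV, and 1.45-fold for *Stra6*, the uptake receptor for retinol, toward 4V (adjusted p = 0.0371, 0.0438 and 0.031, edgeR). Of 31 receptor genes for serotonin, peptide hormones and nucleotides, 4 were higher in LV and 1 in 4V, and 1 or 2 were called in LV without LV pool B, 4V pool A or 4V pool B. Over all pools, the called share of these receptor genes was 16.1%, beside 7.49% of all genes tested. The leptin receptor *Lepr* had 3163 and 3793 in LV and 1979 and 2343 in 4V, a 1.61-fold difference (adjusted p = 0.00704, edgeR). *Adora2b*, an adenosine receptor, was 1.68-fold higher in LV (adjusted p = 0.0119, edgeR), and *Agtr1a*, the angiotensin receptor, had 10.3 and 18.4 in LV and 0 and 1.5 in 4V (ratio 21.3, 95% counting interval 3.59 to 864, adjusted p = 0.0322, edgeR). *Agtr1a* passed the count filter only through the LV pools, so the filter set its direction. *Trhr*, the receptor for thyrotropin-releasing hormone, had 7.9 and 12.8 in LV and 68.2 and 40.6 in 4V, a 5.25-fold difference (adjusted p = 0.00587, edgeR).

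Motile cilia genes that passed the test were all higher in 4V. They were 14 of 46 tested (30.4%, beside 4.00% of all genes tested that were called higher in 4V). The median log2 fold change was -0.39, compared with 0.01 over all genes tested. *Cfap46* had 48.2 and 30.5 normalized counts in LV and 188 and 152 in 4V (log2 fold change -2.11, standard error 0.27, adjusted p = 0.000299, edgeR). *Dnah6*, a dynein heavy chain of the axoneme, had 2608 and 1759 in LV and 4001 and 4492 in 4V, a 1.94-fold difference (adjusted p = 0.00289, edgeR). *Lrrc23* was 2.08-fold and *Ak7* 1.59-fold higher in 4V (adjusted p = 0.00139 and 0.00479, edgeR). Summed over the list, the pools had 45800 and 36890 normalized counts in LV and 54220 and 52680 in 4V, so LV pool A lay between LV pool B and the 4V pools. The count of called members moved with the pools used, to 19 without LV pool A, 5 without LV pool B and 4 without either 4V pool in turn. *Gmnc*, a regulator of multiciliated cells that is outside the list, had 1452 and 590 in LV and 2660 and 3113 in 4V, and was named after its values were seen (adjusted p = 0.00521, edgeR). In the Cre-Tat pools, 11 members of the list were called higher in 4V and none in LV.

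Of 38 MHC class II and interferon-inducible genes tested, 1 was higher in LV and 2 in 4V, a share of 7.89% that is close to the 7.49% of all genes. The GTPase genes *Irgm2* and *Igtp* were 2.49-fold and 2.46-fold higher in 4V (adjusted p = 0.00152 and 0.00264, edgeR), and *Ifit3* was 4.35-fold higher in LV (38.7 and 45.7 against 3.65 and 16.5, adjusted p = 0.0318, edgeR). Without LV pool A, 13 genes of this list were called higher in LV. Of 22 immediate early genes, edgeR and DESeq2 each called 0, with 1 and 0 at an unadjusted p under 0.05. Of 59 nuclear genes of the respiratory chain, 2 were higher in LV (*Ndufa3* and *Cox6a1*, each 1.48-fold, adjusted p = 0.0215 and 0.0244, edgeR), and their median was 0.25. With total counts that median was 0.06 and edgeR called 0, with 2 at an unadjusted p under 0.05.

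Epithelial markers were called in both directions, and the endothelial markers that passed were higher in LV. All 20 listed epithelial markers were tested, 2 were higher in LV and 1 in 4V, and the median was 0.13. Their summed level was 3771000 and 3830000 normalized counts in LV and 3686000 and 3098000 in 4V. *Ttr*, the transthyretin gene that makes up most of this sum, had 2937071 and 2988503 in LV and 2764168 and 2260085 in 4V and did not pass (log2 fold change 0.24, standard error 0.15, adjusted p = 0.384, edgeR). Of 11 endothelial markers, 4 were higher in LV and none in 4V (36.4%, beside 7.49% of all genes tested), with a median of 0.66. The list summed to 4166 and 4738 in LV and 2721 and 3079 in 4V. *Plvap*, a marker of the fenestrated capillaries that supply the ChP, had 493 and 702 in LV and 151 and 206 in 4V, a 3.37-fold difference (adjusted p = 0.000114, edgeR). *Tek*, *Tie1* and *Pecam1* were 1.82-fold, 1.81-fold and 1.58-fold higher in LV (adjusted p = 0.00374, 0.0159 and 0.0149, edgeR). *Cldn5*, typical of vessels with a tight barrier, lay in the same direction at low counts, 35.3 to 43.4 in LV and 19.5 to 22.6 in 4V, and did not pass (adjusted p = 0.182, edgeR). With total counts or without 4V pool A, 2 endothelial markers were called in LV. In bulk tissue, fewer cells of a type and less RNA per cell cannot be told apart. The part of the vascular share in the genes higher in LV, such as *Col4a1*, was not tested.

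Markers of other cell types were called in part, some in each direction. Of 15 markers of fibroblasts and meninges, 3 were higher in LV (*Fbln1*, *Dcn* and *Mgp*, 1.9-fold, 1.51-fold and 1.43-fold) and 1 in 4V (*Slc47a1*), and without 4V pool B 1 in each direction. Their sum was 20700 and 20520 in LV and 17590 and 15890 in 4V. Of 11 macrophage markers 1 was called, *Csf1r*, 1.59-fold higher in LV (adjusted p = 0.0373, edgeR), with sums of 1320 and 1444 in LV and 1061 and 962.5 in 4V. Mural cell markers gave 0 calls of 10 in edgeR and in DESeq2, with 4 and 3 at an unadjusted p under 0.05, and neuronal markers gave 0 of 8 in both, with 1 and 0. The neuronal sum was 543.3 and 561.1 in LV and 616.1 and 333.9 in 4V, and in the Cre-Tat pools 6 neuronal markers were called higher in LV. Of 7 oligodendrocyte markers, *Mobp* was called, with 45.8 and 148 in LV and 36.5 and 10.5 in 4V (adjusted p = 0.0433, edgeR), and *Mbp* had 292 and 362 in LV and 286 and 301 in 4V. The sum of that list was 1008 and 1376 in LV and 1030 and 911.4 in 4V, highest in LV pool B. Of 10 astrocyte markers, the glutamate transporter genes *Slc1a2* and *Slc1a3* were higher in LV and *Aldh1l1* in 4V (without 4V pool B 0 in LV and 1 in 4V), with sums of 2199 and 2441 in LV and 2855 and 2364 in 4V. Ependymal markers had 1 call in each direction of 11 and summed to 14420 and 14920 in LV and 11260 and 10800 in 4V. Lists for cerebellar cells and for the subventricular zone had 4 and 2 tested genes and no call in edgeR or DESeq2, with 1 in each list at an unadjusted p under 0.05 by either tool. Of 8 erythrocyte genes, none reached the filter. The 2 tested lymphocyte genes had 0 calls and 0 at an unadjusted p under 0.05 by either tool.

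**Figure D5:**
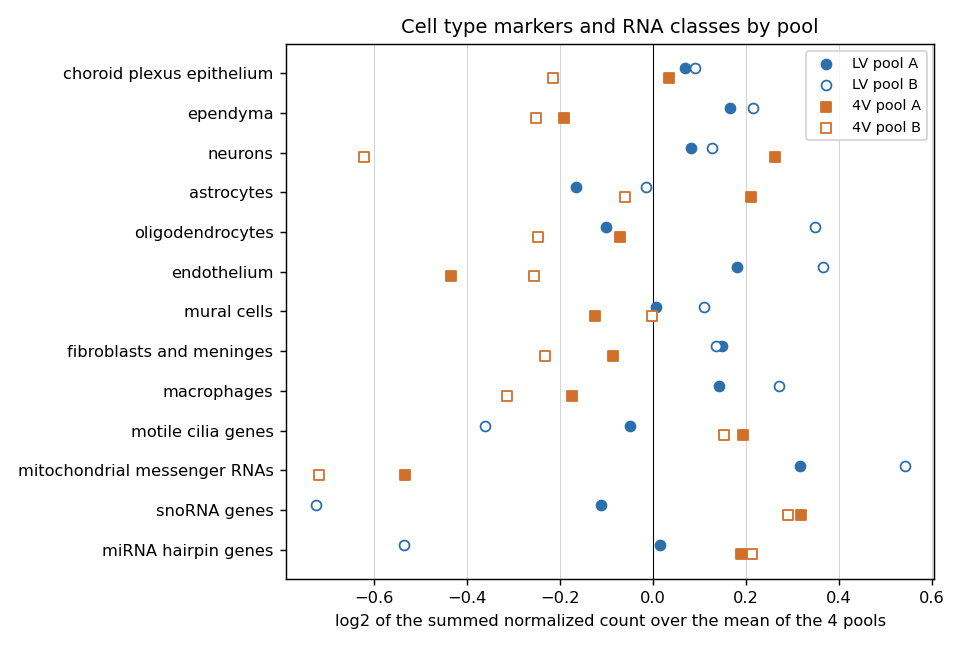
Log2 of the summed normalized count of each list in a pool over the mean of the 4 vehicle pools, with circles for LV and squares for 4V, filled for pool A and open for pool B. Endothelial markers and mitochondrial messenger RNAs lie higher in both LV pools, motile cilia genes, snoRNA genes and miRNA hairpin genes lie higher in both 4V pools, and for these last classes LV pool A lies nearer to 4V than LV pool B does.

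Classes of RNA were put together after their values were seen. All 7 mitochondrial messenger RNAs that were tested were higher in LV, by 0.84 to 1.20 on the log2 scale, and 5 others of the 13 had no count in any pool. *mt-Nd1*, for a subunit of complex I, had 122901 and 145055 normalized counts in LV and 64118 and 53164 in 4V (log2 fold change 1.19, standard error 0.15, adjusted p = 0.000231, edgeR). All mitochondrial transcripts took 29.7% and 30.2% of the gene counts in LV and 24.2% and 22.1% in 4V, of which the mitochondrial ribosomal RNAs alone made up 28.1, 28.3, 23.2 and 21.1 percentage points. In the Cre-Tat pools, none of these 7 was called, and for *mt-Nd1* the log2 fold change was 0.16 (adjusted p = 0.818, edgeR). The nuclear RNA *Malat1*, among the genes with the most counts, had 101141 and 39020 in LV and 154979 and 181842 in 4V (log2 fold change -1.26, standard error 0.30, adjusted p = 0.0214, edgeR), and *Neat1*, chosen after its values were seen, 3599 and 1708 in LV and 6124 and 6126 in 4V (log2 fold change -1.21, standard error 0.24, adjusted p = 0.00766, edgeR). Of 131 snoRNA genes tested, 9 were higher in 4V and none in LV (6.87%, beside 7.49% of all genes), and their median was -0.63. Without LV pool A 42 were called in 4V and 4 in LV, without 4V pool A 6 in 4V and without 4V pool B 2 in 4V. The imprinted RNA *Meg3*, from the same locus as *Dlk1*, had 130 and 89 in LV and 362 and 493 in 4V (adjusted p = 6.68e-05, edgeR) but was near 0 in the Cre-Tat pools (log2 fold change -0.10, adjusted p = 0.923, edgeR). The part that the RNA classes, the depth and the difference between the LV pools play in each other was not tested.

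Of 63 miRNA hairpin genes tested, 7 were higher in 4V and none in LV (11.1%, beside 7.49% of all genes tested), while DESeq2 called 0 of 63 with 13 at an unadjusted p under 0.05. Without LV pool A edgeR called 20 in 4V, without LV pool B 2, and without 4V pool A or 4V pool B 0, with 17 and 15 at an unadjusted p under 0.05. These libraries hold long RNA, so a count is a read over the hairpin locus and not a mature miRNA. The mature 5p sequences of 4 of them are shown, with the seed (bases 2 to 8) in capitals, because their loci lie in genes that also differed or are known from multiciliated and epithelial cells. Builds and sequences are those of RefSeq for GRCm38.p6, and no seed is shared between them.
miR-204-5p: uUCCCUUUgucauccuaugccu
miR-125b-5p: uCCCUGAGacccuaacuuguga
miR-224-5p: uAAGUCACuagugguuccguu
miR-34b-5p: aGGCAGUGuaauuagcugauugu
*Mir204* lies within *Trpm3* on chromosome 19 and had 133 and 37.7 normalized counts in LV and 248 and 205 in 4V (log2 fold change -1.41, standard error 0.38, adjusted p = 0.0373, edgeR), beside 39217 and 28638 in LV and 49441 and 49309 in 4V for *Trpm3*. *Mir125b-2* lies within *Mir99ahg* on chromosome 16 and had 17.4 and 3.21 in LV and 51.1 and 34.6 in 4V (adjusted p = 0.0468, edgeR), and *Mir99ahg* itself was 2.61-fold higher in 4V (adjusted p = 0.0103, edgeR). *Mir224* lies within *Gabre* on the X chromosome, with 1 read in each LV pool and 10 in each 4V pool (ratio 16.9, 95% counting interval 4.11 to 149, adjusted p = 0.02, edgeR). This hairpin gene passed the count filter only through the 4V pools, so the filter set its direction. *Mir34b*, on chromosome 9, had 15 and 4.01 in LV and 37.7 and 39.1 in 4V (adjusted p = 0.0395, edgeR). The remaining 3 were *Mir23b*, *Mir764* and *Mir5125*, and *Htr2c*, which holds *Mir764*, had 13410 and 14306 in LV and 13934 and 14617 in 4V (adjusted p = 0.879, edgeR). In the Cre-Tat pools, *Mir224* was not tested, and *Mir204*, *Mir125b-2* and *Mir34b* had an adjusted p of 0.0675, 0.0681 and 0.0895 (edgeR), while 5 other hairpin genes were called higher in 4V.

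Among the genes with the highest counts, *mt-Rnr2*, *mt-Nd1*, *mt-Cytb* and *Malat1* passed the test, compared with a share of 7.49% of all genes tested. The 10 with the most counts over the vehicle pools were *mt-Rnr2*, *Ttr*, *mt-Rnr1*, *Enpp2*, *Malat1*, *mt-Nd1*, *Apoe*, *Bsg*, *Kl* and *mt-Cytb*. No other member of this group passed the test. *Enpp2*, which encodes the secreted enzyme autotaxin, had 593710 and 582230 normalized counts in LV and 695813 and 615281 in 4V (adjusted p = 0.547, edgeR). *Kl*, the Klotho gene, had 47379 and 53560 in LV and 41215 and 45808 in 4V (adjusted p = 0.358, edgeR). The mitochondrial ribosomal RNA *mt-Rnr2* was 1.46-fold higher in LV (adjusted p = 0.0448, edgeR), and *mt-Rnr1* had an adjusted p of 0.0551.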

How the data were processed

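RNA of dissected ChP was sequenced by the study as 50-base reads from stranded, ribosomal RNA-depleted libraries per the labels, while the study's methods name poly(A) selection. The deposited files hold whole-number read counts per transcript, which the authors made without normalization. The submitters' processing notes list bcl2fastq 1.8.4, Bowtie 0.12.9, SAMtools, HTSeq 0.5.3, DESeq 1.8.3 and mm10. The annotation and the strand setting are not given in the sources used here. Reads of repeated genes may be lost or split by such counting.

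Each library was deposited as 2 runs, which were summed. Of 95533 transcripts, 82807 matched GENCODE vM21 names, with 89.462% of counts, and 1 transcript, the one holding most reads, stood for each of 33964 genes. Total counts per vehicle pool were 22750019 to 46827601, so genes with few reads were measured least precisely in 4V. Counting intervals and floors cover counting error only.

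Counts were filtered (filterByExpr), scaled by TMM and tested with the quasi-likelihood test of edgeR 4.0.16 in R 4.3.3, with a Benjamini-Hochberg threshold of 0.05. In the vehicle and the Cre-Tat fits, a gene with few or no reads in a ventricle passed the filter only through the other. The direction of such a gene was thus set in advance, in every list. Standard errors are the fold change over the root of the F statistic. Normalized counts are counts over the scaled library size. DESeq2 1.42.0, other scalings and filters, a pool letter block, all 8 pools together, single runs, summed transcripts, files as attached to titles and leaving out each pool were the alternatives, and the scripts were tested on simulated data. Named genes are first the 15 largest differences in each direction (mean of at least 50, pools not overlapping). Up to 4 called members of each list, the patterning factors tested and the 10 genes with the most counts were added. Other genes were chosen after their values were seen, and not all of these are marked in the text. Among the unmarked are *Igfbp2*, *Lrp2*, *Abca4*, *Meg3*, most of the cell type markers named and the miRNA hairpin genes. The members and lists were chosen with earlier results of these data known. Promoter and miRNA sequences are from RefSeq. Some genes that this rule names are not reported here.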

Additional observations from a re-analysis of the deposited data

Results flagged for a closer look

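*Gpr176*, which encodes an orphan G protein-coupled receptor, was the gene whose difference between the ventricles was itself different after Cre-Tat, by -3.07 on the log2 scale, Cre-Tat minus vehicle (standard error 0.42, adjusted p = 0.039, edgeR interaction term over all 8 pools, 1 gene of 15552). In the vehicle pools it had 30 and 48.1 normalized counts in LV and 34.1 and 21.1 in 4V, which overlapped (log2 fold change 0.48, adjusted p = 0.525, edgeR). In the Cre-Tat pools it had 45.2 and 52.6 in LV and 286 and 301 in 4V (log2 fold change -2.58, adjusted p = 1.52e-06, edgeR).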

How the results depend on the processing

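Leaving out 1 pool gave 408 to 1969 called genes, 221 to 753 of them higher in LV and 187 to 1216 higher in 4V, and the lone pool left in a ventricle was assumed to vary like the others. DESeq2 called 783 genes. With total counts 252 genes were called higher in LV and 1220 higher in 4V. Without a filter on low counts the calls were 1838 (864 in LV and 974 in 4V), with all 8 pools fitted together 715 (331 and 384), and with the runs as separate libraries, which are not replicates, 3708 (1791 and 1917). Sums over transcripts gave 809. With a mean count above 10 the interaction had 0 calls in edgeR, with 364 at an unadjusted p under 0.05. The cause of these differences was not tested. Of 165 called genes that are named, those that lost their call numbered 27 with DESeq2, 20 with total counts, 2 of 156 with a mean above 10, 25 with all pools together, 32 with summed transcripts and 8 to 48 when a pool was left out, and none of these alternatives reversed one.

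With the pool letter as a replicate block, 2277 genes were called (1048 in LV and 1229 in 4V), which include all 1090, and the Cre-Tat comparison had 1176 and the interaction 6 calls. The letters share only a name, since the sources used here do not say that a letter marks the same mice and the correlation of pools with the same letter was 0.0672 in vehicle and 0.075 in Cre-Tat.

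With the files taken as attached to the sample titles, both sides carry 4V library numbers and 4715 genes were called (2283 and 2432). In that comparison 69 named genes reversed, with log2 fold changes of Aldh1l1 0.13, Atp1b2 -0.54, Cacna1h -0.03, Cdh1 0.46, Cdh18 0.11, Cldn9 0.50, Clstn3 0.16, Cnpy1 0.04, Col23a1 -0.13, Col4a1 -0.12, Col4a6 0.14, Cxcl12 -0.14, Eif2s3y 1.02, Elovl5 0.22, En2 0.05, Fbln1 -0.07, Gabrb1 -0.06, Gabre 0.10, Gabrg1 -0.28, Gfra1 0.26, Gldc -0.02, Gm853 0.28, Grem1 0.42, Gria3 -0.11, Hotairm1 0.07, Hoxb4 0.43, Id1 0.59, Id3 0.27, Id4 0.32, Ifit3 -0.05, Igf2 -0.14, Igfbp3 -0.24, Igfbp5 -0.32, Igfbp6 0.59, Irx2 0.46, Jam3 0.20, Kcnab1 -0.07, Lepr -0.20, Lrrc23 0.05, Mir125b-2 0.25, Mir204 0.32, Mir34b 0.15, Nr2f2 -0.22, Nyap2 -0.30, Pbx3 0.13, Pecam1 -0.07, Plvap -0.52, Rxra -0.06, Sema3b 0.13, Sfrp4 0.57, Slc1a3 -0.04, Slc47a1 0.16, Stra6 0.23, Tbc1d2 0.02, Tek -0.13, Tenm2 -1.36, Tgfb2 -0.00, Tgfb3 -0.11, Thsd4 0.42, Tie1 -0.29, Trhr 0.45, Vegfc 0.04, Vegfd 0.40, Wls 0.14, Zfyve28 0.16, mt-Cytb -0.64, mt-Nd1 -0.44, mt-Nd2 -0.76, mt-Nd6 -0.95. Genes with few reads limit what 4V can show, since its shallower pool had 10555040 gene counts.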

Other observations

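Receptor genes for inhibitory and excitatory transmitters, grouped by symbol after their values were seen, differed in 8 of 21 tested genes (38.1%, beside 7.49% of all genes tested). *Gabra4*, an alpha subunit of GABA-A receptors, had 614 and 777 normalized counts in LV and 359 and 280 in 4V (adjusted p = 0.000952, edgeR), and *Glrb*, the beta subunit of glycine receptors, had 489 and 519 in LV and 254 and 227 in 4V (adjusted p = 0.000524, edgeR). *Gria3*, *Gabrb1*, *Glra3* and *Gabrg1* were also higher in LV. *Grm8*, a metabotropic glutamate receptor, had 362 and 294 in LV and 851 and 899 in 4V (adjusted p = 4.44e-05, edgeR), and *Gabre* was higher in 4V with it. Of these 8 genes, *Gria3* and *Gabrb1* were not called in the Cre-Tat pools.

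A few secreted factors were also chosen after their values were seen, as single genes. The chemokine *Cxcl12* had 979 and 1342 in LV and 330 and 453 in 4V, *Esm1* 226 and 237 in LV and 63.3 and 81.2 in 4V, and *Angpt2* 276 and 256 in LV and 127 and 137 in 4V (adjusted p = 0.000108, 0.000215 and 0.00275, edgeR). *Vegfc* and *Vegfd*, ligands for lymphatic growth, were 2.44-fold and 4.42-fold higher in 4V (adjusted p = 0.0221 and 0.015, edgeR) and were not called in the Cre-Tat pools.

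*Elovl5*, a fatty acid elongase, had 291 and 240 in LV and 1163 and 1023 in 4V (adjusted p = 2.7e-06, edgeR). *Tbc1d8* was 3.69-fold higher in 4V. In its family, grouped by symbol after the values were seen, 4 of 29 tested genes were called, all in 4V, with *Tbc1d1* among them. That is 13.8%, beside 4.00% of all genes tested that were called higher in 4V. With all 8 pools fitted together 2 of the family were called in 4V, and in the Cre-Tat pools 2. The genes of this paragraph were also chosen after their values were seen. *Xist* had 8277 and 2580 in LV and 7001 and 10637 in 4V (adjusted p = 0.27, edgeR), while the Y-linked *Eif2s3y* was 1.9-fold higher in 4V (adjusted p = 0.0123, edgeR). The other Y-linked genes looked at, *Ddx3y*, *Kdm5d* and *Uty*, are not among the called genes. The part of the sexes in each pool was not tested.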
